A study of Mus musculus with 4 samples.

Results

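The genes described here are Ptbp1, the target of the siRNA, with its paralogs Ptbp2 and Ptbp3 and with 4 genes of proteins known to work beside PTBP1, namely Raver1, Raver2, Matr3 and Hnrnpl. They were chosen by symbol, and all 7 were found among the 54532 genes of the deposited table. RNA of mouse cells labelled astrocyte was sequenced after treatment with Ptbp1 siRNA (2 libraries) or with NC siRNA (2 libraries), which the table's columns name as the control. An siRNA is a short double-stranded RNA that guides the cell to cut transcripts of the same sequence. The labels give no strain, age or origin of the cells and no sequence, dose or duration for the siRNAs. They do not say either that replicates were separate cultures, so p-values rest only on spread between these libraries, which may be technical. For a single gene that spread is estimated largely over all genes.

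PTBP1 binds pyrimidine-rich stretches next to exons and mostly represses their inclusion. It is abundant in glia and other non-neuronal cells, while PTBP2 takes over in differentiating neurons and PTBP3 was first described in blood cells. In many cell types PTBP1 is known to force skipping of a short exon in the Ptbp2 transcript and of the matching exon in its own transcript. The skipped forms carry an early stop codon and are degraded by nonsense-mediated decay. Raver1 and Raver2 encode corepressors that bind PTBP1 through a short peptide motif. Matr3 encodes matrin 3, a nuclear matrix protein that also binds PTBP1 and represses exons, and Hnrnpl encodes a related RNA-binding protein that binds CA-rich stretches.

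The exon on which this cross-regulation is known to act was read from the transcripts of the GENCODE M21 annotation, on the GRCm38 assembly, since it is a sequence feature that the 3 PTB genes share. Only internal exons of 34 bases were searched, and in Ptbp2 and Ptbp3 the exon most like that of Ptbp1 was taken. The equal length, and part of the likeness to Ptbp1, thus follow from the choice. That length leaves a remainder of 1 on division by 3, so that skipping shifts the reading frame. The sequences run 5′ to 3′ on the coding strand, with the exon in capitals and 15 bases of each neighbouring exon in lower case.
Ptbp1: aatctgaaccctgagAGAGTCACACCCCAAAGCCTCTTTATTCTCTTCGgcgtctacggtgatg
Ptbp2: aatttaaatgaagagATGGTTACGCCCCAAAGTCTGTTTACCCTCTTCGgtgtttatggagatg
Ptbp3: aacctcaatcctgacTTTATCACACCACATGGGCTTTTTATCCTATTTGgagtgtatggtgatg
The exon lies at chr10:79862014-79862047 on the plus strand in Ptbp1, at chr3:119724612-119724645 on the minus strand in Ptbp2 and at chr4:59485339-59485372 on the minus strand in Ptbp3. Of its 34 bases, Ptbp1 and Ptbp2 shared 26, Ptbp1 and Ptbp3 shared 22, and Ptbp2 and Ptbp3 shared 21. Ptbp3 has a further internal exon of 34 bases, which shared 5 with that of Ptbp1 and was not taken.

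The annotated transcripts differ between the paralogs. In Ptbp1, 3 protein-coding transcripts hold the exon, and both transcripts annotated as skipping it are classed as nonsense-mediated decay. In Ptbp2, 3 protein-coding transcripts hold it, and 2 of the 3 that skip it are classed as nonsense-mediated decay. The remaining transcript is classed as neither that nor protein-coding. In Ptbp3, 9 transcripts hold it and 0 skip it in this annotation. Where the exon is present, the coding sequence of the protein-coding Ptbp1 transcripts ends 130 bases after the last exon junction. In the skipped forms it ends 364 or 286 bases before that junction in Ptbp1 and 364 bases before it in Ptbp2. The deposited values are counts per whole gene, so they do not separate the included from the skipped forms.

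The gene counts totalled 14557844 and 14981622 in the Ptbp1 siRNA libraries, against 16009248 and 15002578 in the NC siRNA libraries. Summed astrocyte markers, 9 genes such as Gfap and Slc1a3, stood at 2298 and 2026 CPM (counts scaled to library size) with Ptbp1 siRNA and at 2337 and 2203 CPM with NC siRNA. Markers of other cells were present too. The sums were 2461 and 2057 CPM with Ptbp1 siRNA against 2762 and 2488 CPM with NC siRNA for 6 fibroblast and mural markers, and 732 and 703 against 737 and 740 CPM for 6 markers of microglia and macrophages. For 5 markers of motile cilia the sums were 351 and 367 CPM with Ptbp1 siRNA against 378 and 392 CPM with NC siRNA, and for 5 choroid plexus markers 53.0 and 68.2 against 68.7 and 417 CPM. They were 280 and 265 against 278 and 286 CPM for 6 oligodendrocyte lineage markers, and 258 and 245 against 254 and 242 CPM for 6 neuronal markers. Only 3 of the 6 neuronal and 3 of the 5 choroid plexus markers passed the filter on low counts. Of the microglia and macrophage markers 5 of the 6 did. The lowest marker had a mean of 0.168 CPM in the neuronal list and 0.184 CPM in the choroid plexus list. In the microglia and macrophage list the lowest had 0.525 CPM, and in the oligodendrocyte lineage list 0.663 CPM. A sum can thus rest on few genes of its list. None of these 43 markers was at 0 in all libraries, and of the 37 that passed the filter on low counts 0 were called between the siRNAs by edgeR, DESeq2 or limma, with 7 at an unadjusted edgeR p under 0.05. That is 18.9% of the 37, where 3.98% of all genes tested had such a p. All 7 were lower with Ptbp1 siRNA, and they came from the astrocyte, fibroblast and mural, motile cilia and choroid plexus lists. In the choroid plexus list only NC siRNA 2 stood high.

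The question put to these genes is how far the target was lowered and whether its paralogs and partners differed with it. Of the 7 genes, 6 had counts and passed the filter on low counts, and Raver1 was listed at 0 in every library. A call is an edgeR quasi-likelihood test with a Benjamini-Hochberg adjusted p under 0.05 over all 16368 genes tested. Of the 6 tested genes 1 was called, Ptbp1, which was lower with Ptbp1 siRNA. Over all genes 0.0244% were called in either direction, 0.0183% lower and 0.00611% higher. On the CPM scale, both libraries of one group lay beyond both of the other for 3 of the 6 genes. These were Ptbp1 and Matr3 on the lower side and Ptbp2 on the higher side. Of all genes tested, 31.5% were separated in this way, 15.9% lower and 15.6% higher. The number of genes that did not overlap is therefore no result about this group.

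Ptbp1 (ENSMUSG00000006498; GRCm38 chromosome 10, 79854427 to 79864771, plus strand) had 2944 and 2914 counts with Ptbp1 siRNA, against 4816 and 4428 counts with NC siRNA. Its level scaled to length and depth was 42.6 and 41.1 FPKM with Ptbp1 siRNA and 63.1 and 62.0 FPKM with NC siRNA. Both Ptbp1 siRNA libraries lay well below both NC siRNA libraries, and the libraries within a group differed by little. On the CPM scale the level was 199 ± 5.13 with Ptbp1 siRNA and 298 ± 3.61 with NC siRNA (mean ± SD, n = 2 each). The fitted fold was 0.669, with a 95% interval of 0.610 to 0.733, which leaves most of the transcript in place. On the log2 scale it changed by -0.58 (SE 0.0627, adjusted p = 0.00127 by edgeR), and its p was the smallest of all genes tested. On log2(FPKM + 1) values, limma gave -0.57 with an adjusted p of 0.485, which is no call. In these bulk samples, fewer cells of a type and less RNA per cell cannot be told apart. The fibroblast, microglia, cilia and choroid plexus marker sums were also lower in both Ptbp1 siRNA libraries. The nearest libraries were close, at 2461 against 2488, 732 against 737, 367 against 378 and 68.2 against 68.7 CPM (Ptbp1 siRNA against NC siRNA). Of all genes tested, 15.9% were lower in both Ptbp1 siRNA libraries. The part of these sums was not tested.

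Other genes had larger fold changes than Ptbp1. Among the 11832 tested genes with a mean of at least 5 CPM, 24 had a log2 fold change at or below that of Ptbp1, Ptbp1 included. The authors' deposited table gave Ptbp1 a log2 fold change of -0.58 and an adjusted p of 2.4e-11.

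**Figure D1:**
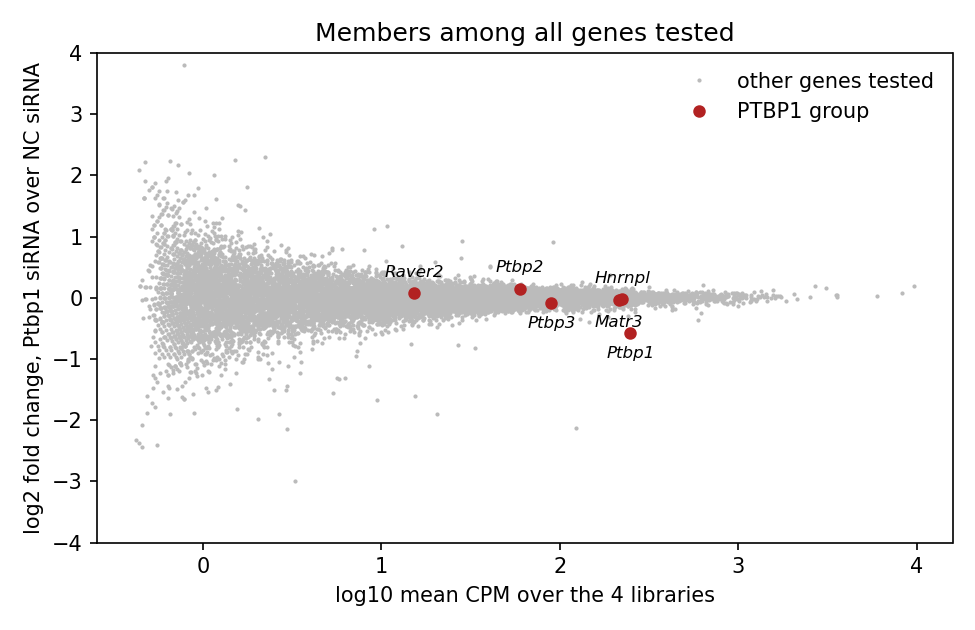
log2 fold change (Ptbp1 siRNA over NC siRNA, edgeR) against the log10 of the mean CPM over the 4 libraries, with 1 grey point for each gene tested and the 6 tested genes of the PTBP1 group in red. Ptbp1, at -0.58, lies below the band of genes with similar counts, while the other 5 lie within it.

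Ptbp2, the neuron-enriched paralog (ENSMUSG00000028134; chromosome 3, 119718742 to 119784466, minus strand), had 6.92 and 6.76 FPKM with Ptbp1 siRNA, against 6.001 and 6.375 FPKM with NC siRNA. Both Ptbp1 siRNA libraries lay above both NC siRNA libraries, by a small margin. The counts behind these levels were 926 and 929 with Ptbp1 siRNA and 887 and 881 with NC siRNA. The log2 fold change was 0.14 (SE 0.0765, unadjusted p = 0.0763, adjusted p = 1.00, edgeR). Its 95% interval runs from a fold of 0.988 to one of 1.24, so a rise above 1.24-fold lies outside it. A pair of annotated genes lies within the span of Ptbp2 on the same strand without sharing exon bases with it. The sense intronic gene Gm42664 had 46 and 44 counts with Ptbp1 siRNA against 64 and 32 with NC siRNA, and Gm43300 had 38 and 39 against 54 and 29. For both of them the NC siRNA libraries lay on either side of the Ptbp1 siRNA libraries.

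Ptbp3, the paralog known from blood cells (ENSMUSG00000028382; chromosome 4, 59471868 to 59549364, minus strand), had 11.6 FPKM in both Ptbp1 siRNA libraries, against 13.0 and 11.6 FPKM with NC siRNA. On the CPM scale the groups overlapped, with 87.28 in Ptbp1 siRNA 1 against 87.24 in NC siRNA 2. In FPKM these libraries stood at 11.606 and 11.609, so the groups narrowly failed to overlap. Only NC siRNA 1 stood clearly higher. The log2 fold change was -0.09 (SE 0.0752), with a 95% interval of the fold from 0.842 to 1.05 and an edgeR adjusted p of 1.00.

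Together the 3 PTB genes summed to 61.1 and 59.4 FPKM with Ptbp1 siRNA, against 82.1 and 80.0 FPKM with NC siRNA. Ptbp1 made up 69.7% and 69.1% of that sum with Ptbp1 siRNA and 76.8% and 77.5% with NC siRNA, so it stayed the main PTB transcript in all libraries. The share of Ptbp2 was 11.3% and 11.4% with Ptbp1 siRNA against 7.31% and 7.97% with NC siRNA, and that of Ptbp3 was 19.0% and 19.5% against 15.9% and 14.5%. Shares of one sum move against each other, so these follow in part from the lower Ptbp1 alone. The ratio of Ptbp1 to Ptbp2 was 6.15 and 6.07 with Ptbp1 siRNA and 10.5 and 9.73 with NC siRNA. The ratio of these ratios was 0.605, or -0.73 on the log2 scale. The ratio of Ptbp2 to Ptbp3, which does not involve the target, was 0.596 and 0.584 with Ptbp1 siRNA and 0.461 and 0.549 with NC siRNA, a difference of 0.23 on the log2 scale. The sum differed by -0.43 on the log2 scale, and the ratio of Ptbp1 to Ptbp3 by -0.50. For each of these 4 quantities the groups did not overlap, and a two-sided exact permutation test gave p = 0.333 (adjusted p = 0.333), the smallest that 2 libraries against 2 allow.

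**Figure D2:**
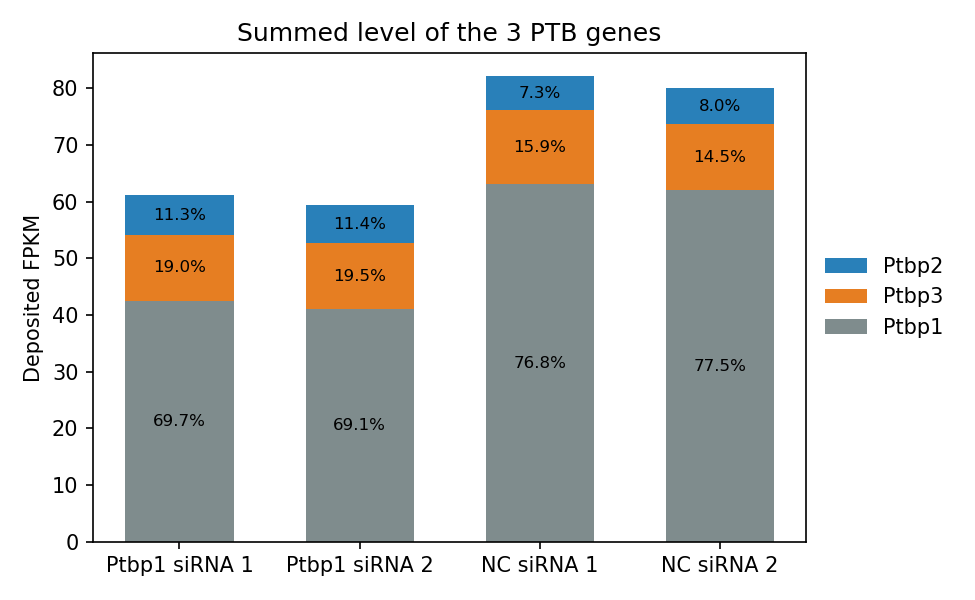
Deposited FPKM of Ptbp1, Ptbp3 and Ptbp2 stacked for each library, with the 2 Ptbp1 siRNA libraries left of the 2 NC siRNA libraries and each gene's percentage of the sum printed in its bar. The sum is 61.1 and 59.4 with Ptbp1 siRNA and 82.1 and 80.0 with NC siRNA, and the difference lies mainly in the Ptbp1 bar.

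Raver2, a corepressor gene (ENSMUSG00000035275; chromosome 4, 101068983 to 101152370, plus strand), was the lowest of the detected genes. It had 2.46 and 2.47 FPKM with Ptbp1 siRNA, against 2.52 and 2.18 FPKM with NC siRNA, so the Ptbp1 siRNA libraries lay between the NC siRNA libraries. The fitted difference of 0.07 on the log2 scale (SE 0.139, adjusted p = 1.00 by edgeR) rests on 208 to 257 counts a library. The 95% interval of the fold, 0.857 to 1.29, is the widest of the 6 genes. Its 3′ end overlaps that of Jak1 on the opposite strand by 4 bases.

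Matr3, the matrin 3 gene (ENSMUSG00000037236; chromosome 18, 35562146 to 35593835, plus strand), had 20.9 and 21.6 FPKM with Ptbp1 siRNA, against 21.9 and 21.8 FPKM with NC siRNA. The groups did not overlap, yet the gap between them was smaller than the difference within the Ptbp1 siRNA group. The log2 fold change was -0.04 (SE 0.0629, edgeR adjusted p = 1.00), with a 95% interval of the fold from 0.887 to 1.07. Hnrnpl (ENSMUSG00000015165; chromosome 7, 28808541 to 28822266, plus strand) had 37.8 and 36.7 FPKM with Ptbp1 siRNA, against 39.2 and 36.6 FPKM with NC siRNA. Here the Ptbp1 siRNA libraries lay between the NC siRNA libraries. The log2 fold change was -0.02 (SE 0.0649, edgeR adjusted p = 1.00), and the interval of the fold was 0.894 to 1.08. The intervals of Ptbp2, Ptbp3, Raver2, Matr3 and Hnrnpl all exclude a fold as low as the 0.669 fitted for Ptbp1.

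**Figure D3:**
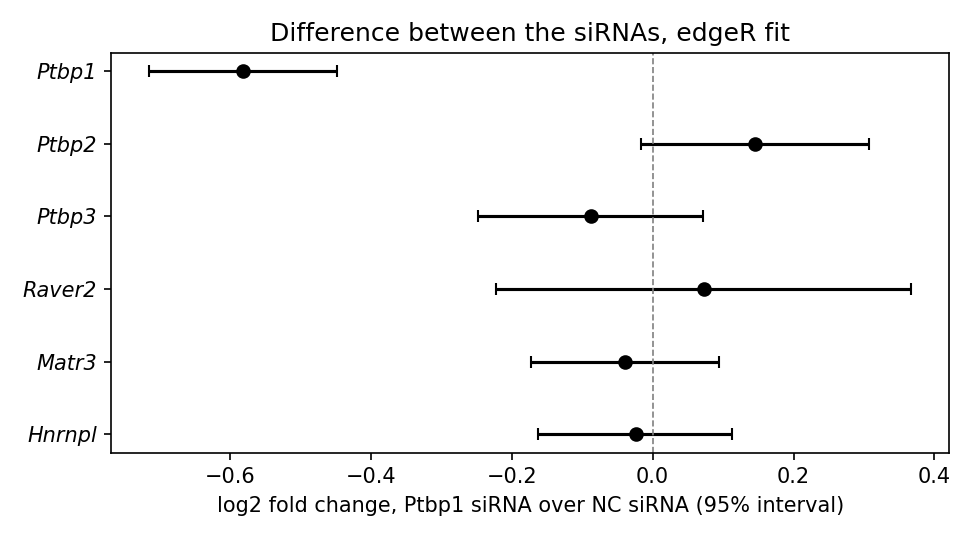
log2 fold change of each tested gene, Ptbp1 siRNA over NC siRNA, with its 95% interval from the edgeR fit over all genes. The interval of Ptbp1 runs from -0.71 to -0.45, and the intervals of Ptbp2, Ptbp3, Raver2, Matr3 and Hnrnpl all include 0.

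The fitted standard errors use a spread estimated largely over all genes, so they do not measure a gene's own spread between libraries. Counting error alone would give a standard error of 0.0241 on the log2 scale for Ptbp1, where the fitted one was 0.0627, and of 0.0947 for Raver2, where the fitted one was 0.139. In Ptbp2 these values were 0.0480 and 0.0765, and in Hnrnpl they were 0.0248 and 0.0649. The least counted gene, Raver2, had the largest of both.

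In length-scaled level with NC siRNA, the order was Ptbp1 at 62.5 ± 0.740 FPKM, Hnrnpl at 37.9 ± 1.80, Matr3 at 21.9 ± 0.0782, Ptbp3 at 12.3 ± 1.00, Ptbp2 at 6.19 ± 0.265 and Raver2 at 2.35 ± 0.239 FPKM (mean ± SD, n = 2). With Ptbp1 siRNA the order was the same, and in both groups the libraries of neighbours in it did not overlap. Ptbp1 came nearest to its neighbour with Ptbp1 siRNA, at 41.8 ± 1.06 FPKM beside 37.3 ± 0.778 FPKM for Hnrnpl. With NC siRNA, the level of Ptbp1 lay above that of 94.8% of the 13920 protein-coding genes tested, that of Ptbp2 above 47.8% and that of Raver2 above 27.7%. The deposited FPKM use the summed exon length of a gene, so a gene with long exons that the cells leave out appears lower than its transcripts are.

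**Figure D4:**
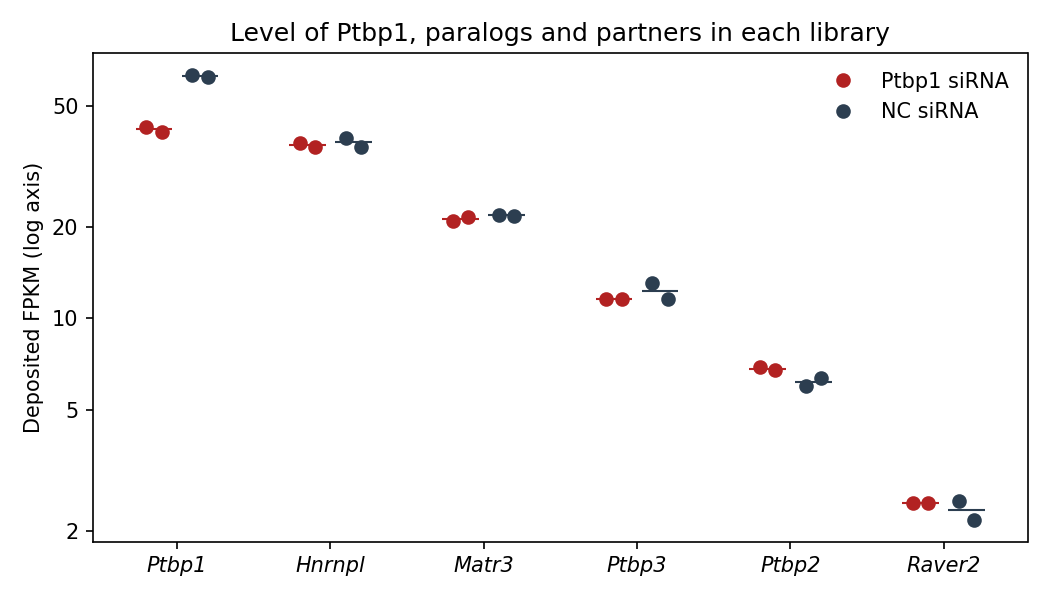
Deposited FPKM, on a log axis, of the 6 detected genes in each library, with Ptbp1 siRNA (red) left of NC siRNA (dark) for each gene; points are libraries and short lines are group means. The groups are clearly apart for Ptbp1 (42.6 and 41.1 against 63.1 and 62.0) and lie close together or overlap for the other 5.

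Raver1 (ENSMUSG00000010205; chromosome 9, 21074158 to 21092008, minus strand) had 0 counts in all 4 libraries, and the authors' deposited table gives it no fold change. In GENCODE M21, 3459 of its 3470 exon bases also lie in exons of Gm38431, a longer gene model on the same strand that runs on through Fdx1l, and 11 bases are its own. Gm38431 itself had 5 and 6 counts with Ptbp1 siRNA and 10 and 4 with NC siRNA, and 89.2% of its exon bases are shared with other genes. Fdx1l, with 72.7% shared, had 0 and 15 counts with Ptbp1 siRNA and 7 in each NC siRNA library. The pattern is general in the table. Of 197 protein-coding genes with at least 99% of their exon bases in exons of another gene, 177 (89.8%) had 0 counts in all libraries, against 4262 of 21394 (19.9%) of those with under 50% shared. How reads shared by several genes were counted is not stated in the labels, and its part in these zeros was not tested. No bound on the level of Raver1 is given for that reason, and its response to the siRNAs is not reported. Gm38431 and Fdx1l are named because their exons overlap Raver1 or its neighbour.

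**Figure D5:**
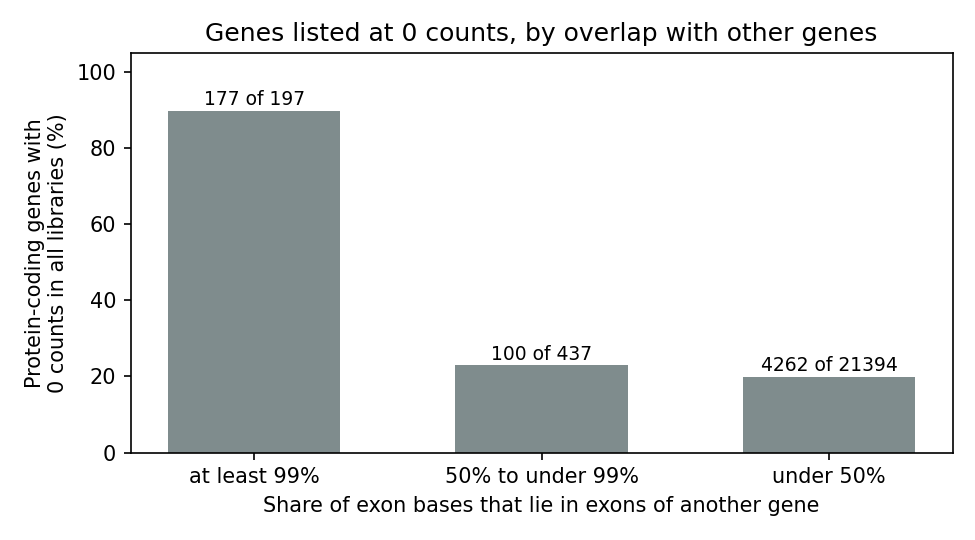
Percentage of protein-coding genes with 0 counts in all 4 libraries, by the share of their exon bases that lie in exons of another gene on either strand, with the numbers of genes above the bars. The class that holds Raver1, at least 99% shared, stands at 89.8%, and the classes with less sharing stand at 22.9% and 19.9%.

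For the other 6 genes sharing was smaller. Ptbp1 has 983 of its 4740 exon bases (20.7%) opposite exons of genes on the other strand, namely Gm17134, E130317F20Rik and Plppr3, and 0 on its own strand. The labels do not say if strand was used in counting, so reads from these stretches cannot be assigned with certainty. E130317F20Rik, a noncoding gene classed as transcribed from a bidirectional promoter at the start of Ptbp1, had 107 and 75 counts with Ptbp1 siRNA and 101 and 91 with NC siRNA, a log2 fold change of 0.00 (SE 0.229). Plppr3, a phospholipid phosphatase-related gene at the other end, had 80 and 65 counts with Ptbp1 siRNA and 114 and 92 with NC siRNA. Its Ptbp1 siRNA libraries both lay below its NC siRNA libraries, at -0.43 on the log2 scale (SE 0.225, adjusted p = 1.00 by edgeR). Of the 50-base stretches of Ptbp1 transcripts 4.75% recur in other genes, most of them in Gm4900, which had 5 and 1 counts with Ptbp1 siRNA and 8 and 3 with NC siRNA. In GENCODE M21, Matr3 is annotated with 10158 exon bases, against 9869 in the table. Of the 10158, 1754 (17.3%) lie in exons of ENSMUSG00000117694 on the same strand, an identifier without deposited counts. The share of recurring 50-base stretches was 16.6% for Matr3, mostly with Gm28285, which had 3 and 2 counts with Ptbp1 siRNA and 3 and 5 with NC siRNA. Gm28285 overlaps the span of Matr3 on the same strand, and whether it is the same gene as ENSMUSG00000117694 was not checked. The share of recurring stretches was 1.48% for Hnrnpl and 0 for Ptbp2, Ptbp3 and Raver2.

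Other factors that bind pyrimidine-rich sequence or act on the same exons as PTBP1 were read from the same fit. Of 29 such genes, all of which were tested, 0 were called higher and 0 lower by edgeR, 0 had an unadjusted p under 0.05, and 0 were called by DESeq2 or by limma. Over all genes, 0.0244% were called by edgeR and 3.98% had an unadjusted edgeR p under 0.05, so these zeros are no result about the 29 genes. The median log2 fold change of the 29 was 0.035, against 0.00 over all genes tested. Of the 29, 21 had a positive value, as had 8210 of all 16368, and this balance of signs was not tested. The members with the largest absolute values were Srrm4, Fubp1 and Mbnl1. Srrm4, a neuronal activator of short exons that counters PTBP1, had 2.82 and 2.48 CPM with Ptbp1 siRNA against 1.81 and 2.07 CPM with NC siRNA (log2 fold change 0.45, SE 0.335). The groups did not overlap, but the level was low and the error large. Groups did not overlap for 15 of the 29 genes and for 31.5% of all genes tested, a difference that was not tested. Fubp1, a binder of single-stranded DNA and RNA, had a log2 fold change of 0.11 (SE 0.0639). Mbnl1, a muscleblind splicing factor, had one of -0.10 (SE 0.0666).

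Genes with exons known to be controlled by PTBP1 gave 0 calls in either direction among 12 tested, with 0 at an unadjusted edgeR p under 0.05 and 0 calls by DESeq2 or limma. Over all genes tested, 0.0244% were called and 3.98% had such an unadjusted edgeR p, so these zeros are no result about the 12 genes. The median log2 fold change of the 12 was 0.012, against 0.00 over all genes tested. Dlg4, the gene of the postsynaptic scaffold PSD-95, whose transcript is known to be degraded when PTBP proteins make it skip an exon, had 86.4 and 92.0 CPM with Ptbp1 siRNA against 81.3 and 81.8 CPM with NC siRNA (log2 fold change 0.13, SE 0.0714). The groups did not overlap, as for 4 of the 12 genes and 31.5% of all genes tested, and the edgeR adjusted p was 1.00. The tropomyosin gene Tpm2 had a log2 fold change of -0.07 (SE 0.0667). Use of the exons themselves was not measured.

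The genes whose pattern over the 4 libraries was closest to that of Ptbp1 were Mdfi, Chst12 and Cadm3. They came out of 11100 protein-coding genes with a mean of at least 5 CPM. Genes with predicted-gene, Rik or similar placeholder symbols had been left out. Likeness is the root mean square difference of log2 CPM, centred on each gene's mean, over 4 libraries. It was 0.0188 for Mdfi, an inhibitor of MyoD family factors, 0.0711 for Chst12, a sulfotransferase of chondroitin, and 0.0736 for Cadm3, an adhesion molecule. Mdfi had 5.03 and 4.97 CPM with Ptbp1 siRNA, against 7.67 and 7.34 CPM with NC siRNA. Its log2 fold change was -0.59, with an SE of 0.208 and an edgeR adjusted p of 1.00 at far lower counts. That the fold changes of these genes lie near that of Ptbp1 follows from their choice by likeness over the same libraries. The log2 fold change was -0.66 for Chst12 (SE 0.213) and -0.50 for Cadm3 (SE 0.201), and neither was called.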

How the data were processed

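Per the labels' protocols, RNA came from an RNeasy kit and the libraries from a SMARTer mRNA kit. GRCm38 and mm10, names of 1 mouse assembly, are the builds in the submitters' processing notes. For the aligner, counting tool, strand setting and the authors' statistical test, no name is given in the sources used here.

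The deposited counts are unnormalized whole numbers for each gene and library. The FPKM that the authors deposited scale these to gene length and to a library size that carries a between-library scaling. The authors also deposited group means (a signal of scaled counts, not printed here) and, for Ptbp1 siRNA over NC siRNA, a log2 fold change with its p-value before and after adjustment. Gene coordinates are those of the table, on GRCm38. Columns were matched to samples by the labels.

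The test on the counts was that of edgeR 4.0.16 in R 4.3.3 (quasi-likelihood, TMM, filterByExpr defaults, group as the only term, Benjamini-Hochberg adjustment over 16368 genes). The model had 2 residual and 14.0 prior degrees of freedom. CPM use TMM-scaled library sizes. Standard errors and 95% intervals come from the quasi-F statistic. No molecular identifiers are mentioned, so reads can include PCR copies.

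Overlaps and sequences came from GENCODE M21 (GRCm38), which holds 54495 of the table's genes, 98.0% of them with the same summed exon length. Matr3 has another length there, the other 6 genes the same. The exons shown for Ptbp2 and Ptbp3 are the internal exons of 34 bases most like that of Ptbp1.

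Alternatives were RLE scaling, no scaling factor, DESeq2 1.42.0, limma 3.58.1 on log2(FPKM + 1), no filter, a mean of at least 1 CPM, a replicate block, and each library left out in turn. The genes, lists and tests were chosen with earlier results of these data known. Named genes are the 7, per list those called or else the 3 with the largest absolute fold change, the 3 most like Ptbp1, and genes overlapping the 7. A gene that this rule takes is not reported here. Gm4900 and Fdx1l fall outside this rule and were chosen after their values were seen.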

Additional observations from a re-analysis of the deposited data

How the results depend on the processing

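Ptbp1 was called lower in 10 of 11 alternatives, with log2 fold changes from -0.61 to -0.55, a range that leaving out single libraries also spans. With limma on log2(FPKM + 1) its log2 fold change was -0.57 with an adjusted p of 0.485, so that 0 of the 6 tested genes were called there, against 1 in every other alternative, and leaving out any library kept that number at 1. The same limma test called 0 genes over the whole table, with 764 at an unadjusted p under 0.05. The number of genes called over the whole table, 4 in the main test, was 50 when low counts were not filtered, 36 with a replicate block, and 34 to 75 when a library was left out. It was 61 without NC siRNA 1 and 75 when NC siRNA 2 was dropped, 61 with Ptbp1 siRNA 1 left out and 34 with Ptbp1 siRNA 2 left out. In the fits with no filter and without a library each gene's spread came from the trend over all genes, and a lone library was assumed to vary like the other group, so these numbers are not directly comparable. Ptbp2 kept a positive log2 fold change (0.10 to 0.19) and Matr3 a negative one (-0.06 to -0.02) in all 11. Over the fits that leave out a library, Hnrnpl ran from -0.07 to 0.02, positive without NC siRNA 1, and Raver2 from -0.03 to 0.18, negative without NC siRNA 2, and Ptbp3 stood at 0.00 without NC siRNA 1. The replicate numbers are shared between groups but no label says that they mark a shared culture or day. The deviations of same-numbered libraries correlated at 0.164 over 11832 genes, and the block left Ptbp1 at -0.58 and called no other of the 6 genes. With the block, 2 of the 6 had an unadjusted edgeR p under 0.05, against 1 in the main test. With 208 to 257 counts a library, depth limits Raver2 most.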
